A study of Mus musculus with 9 samples.

Results

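The comparison described here was between monocytes primed with lipopolysaccharide (LPS) and then given octanal and monocytes given LPS alone. It rested on 6 of the 9 libraries of the series, 3 on each side, chosen by their labels, and on 14885 of the 26770 genes and loci in the table, those with enough counts to test. All cells were labelled as monocytes obtained from the spleen of wild-type (WT) mice. The LPS group received LPS at 40 ng/ml for 5 hours. The octanal group was primed with low-dose LPS and then received octanal at 20 µM for 18 hours according to the series text, while the labels of its 3 samples state 18, 19 and 20 hours. The remaining group, untreated cells in the solvent DMSO at 1 in 1000 (the labels count 1000, 1001 and 1002), is given below only as a reference level. The labels name DMSO for the untreated cells alone and do not say that LPS cells stayed in culture as long as octanal cells. An effect of octanal, of its solvent and of a longer culture after LPS therefore cannot be told apart. Whether the libraries of a group are from different mice or dishes is not stated, and all p-values refer to the spread among these libraries.

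LPS is a component of the outer membrane of Gram-negative bacteria. CD14 and MD-2 pass it to Toll-like receptor 4, which acts through the adaptors MyD88 and TRIF on NF-kappaB and on interferon regulatory factors. Octanal is an odorous aliphatic aldehyde and a ligand of the olfactory receptor Olfr2, and receptors of this family are classically coupled to adenylyl cyclase and cAMP. Monocytes are blood and spleen leukocytes that respond to LPS with cytokines and chemokines and can mature into macrophages. The study asked what this receptor does in monocytes, in the setting of injury to the heart by ischemia and reperfusion.

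The 6 libraries held 31204697 to 38229096 counts each. On the first principal component, which held 51% of the variance, the LPS libraries lay between -41.6 and -20.1 and the octanal libraries at 6.73, 35.9 and 44.8, with octanal library 1 the nearest to the LPS group. Mitochondrial transcripts took 4.12% to 7.66% of counts in LPS libraries and 2.31% to 3.10% in octanal libraries. The labelled cell type was only partly matched by marker genes. Ly6c2, which marks classical monocytes, stood at 7.89, 0.563 and 0.387 CPM (counts scaled to library size) in the LPS libraries and at 1.01, 0.993 and 0.625 with octanal. Its untreated values were 168, 2.81 and 249, so that untreated library 2 stood apart. Ccr2, the chemokine receptor that marks the same cells, had 0.885 to 1.82 CPM in LPS libraries and 0.658 to 2.85 with octanal. Csf1r, the receptor for the macrophage growth factor, was well detected, at 178, 254 and 261 CPM with LPS and 310, 420 and 407 with octanal (difference 0.75 on the log2 scale, adjusted p = 0.0564). Summed markers of T cells, B cells and neutrophils had counts in every library. Of the 16 neutrophil, 12 T cell and 11 B cell markers with an entry, before any filter on counts, 0 were without counts in all 6 libraries.

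Octanal after LPS was accompanied by higher levels of 952 genes and lower levels of 438, which is 1390 of 14885 genes tested or 9.34% (edgeR's quasi-likelihood test, Benjamini-Hochberg adjusted p under 0.05; 6.4% higher and 2.94% lower). Of these, 456 differed at least 2-fold (3.06% of genes tested), 396 of them higher (2.66%) and 60 lower (0.403%). The called genes that were higher had a median log2 fold change of 0.91 and those that were lower of -0.63, against -0.02 over all genes tested, where 1 on this scale is a 2-fold difference. The 6-library fit was chosen with the knowledge that a fit of all 9 libraries, which shares its spread with the more variable untreated group, calls 0 genes (0%). In that fit the lowest adjusted p was 0.0523, and 3447 genes had an unadjusted p under 0.05, among them 1274 of the 1390. DESeq2's Wald test on the 6 libraries called 3227 genes (22.9%) and limma-voom 1074 (7.22%). In limma-trend on log2 FPKM, 1788 genes were called (15.7%) and 43.6% of them were higher, against 68.5% with the counts. That scale moved the median of all genes from -0.02 to -0.13.

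**Figure D1:**
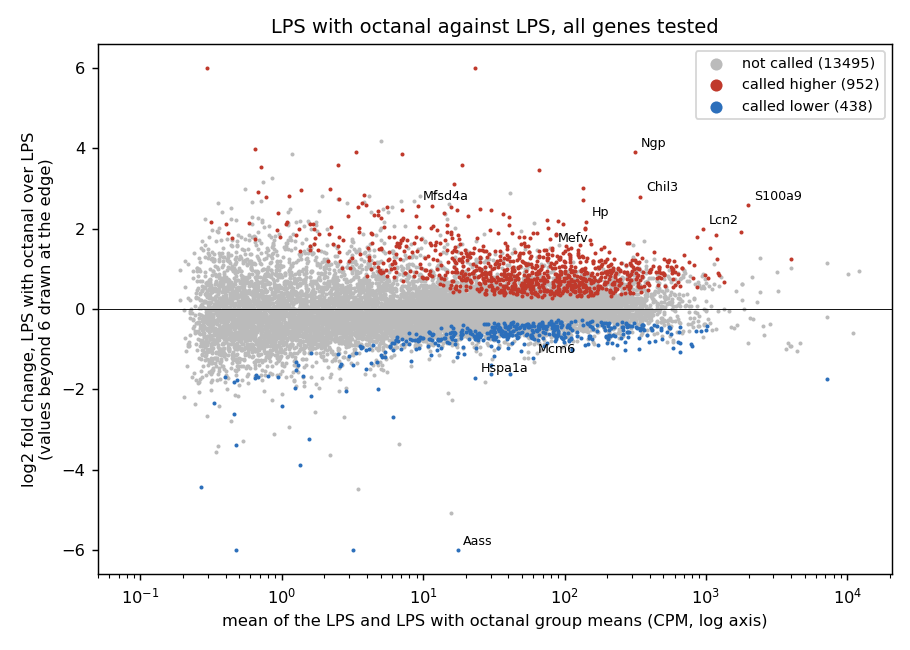
Log2 fold change of LPS with octanal over LPS (vertical axis, limited to 6 either way) against the mean of both group means in CPM (log horizontal axis) for the 14885 genes tested, with 952 genes called higher in red and 438 called lower in blue. Ngp and Chil3 lie among the largest rises, and Aass lies at the lower edge.

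The calls depended on single libraries. Without LPS library 1, 2 or 3 the test called 0, 0 and 2 genes (0%, 0% and 0.0132%), and without octanal library 2 or 3 it called 27 and 5 (0.177% and 0.0326%). Without octanal library 1 it called 3554 (23.3%), of which 57.2% were higher, and 1359 of the 1390 genes were among them. Of the 15274 genes tested in that fit, 2032 rose and 1522 fell. List counts given below without octanal library 1 are to be read against these. All 1390 genes kept their direction and an unadjusted p under 0.05 in each of these 6 fits. They had been called on the same libraries at a stricter limit, so this is not independent support for the calls. In all 1390 the 3 octanal libraries lay entirely above or below the 3 LPS libraries, so leaving out 1 library could hardly reverse a direction. The same absence of overlap was found in 38.8% of all genes tested. Unless stated otherwise, each call named below was lost without any LPS library and without octanal library 2 or 3. The lowest adjusted p of any gene was 0.0113.

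**Figure D2:**
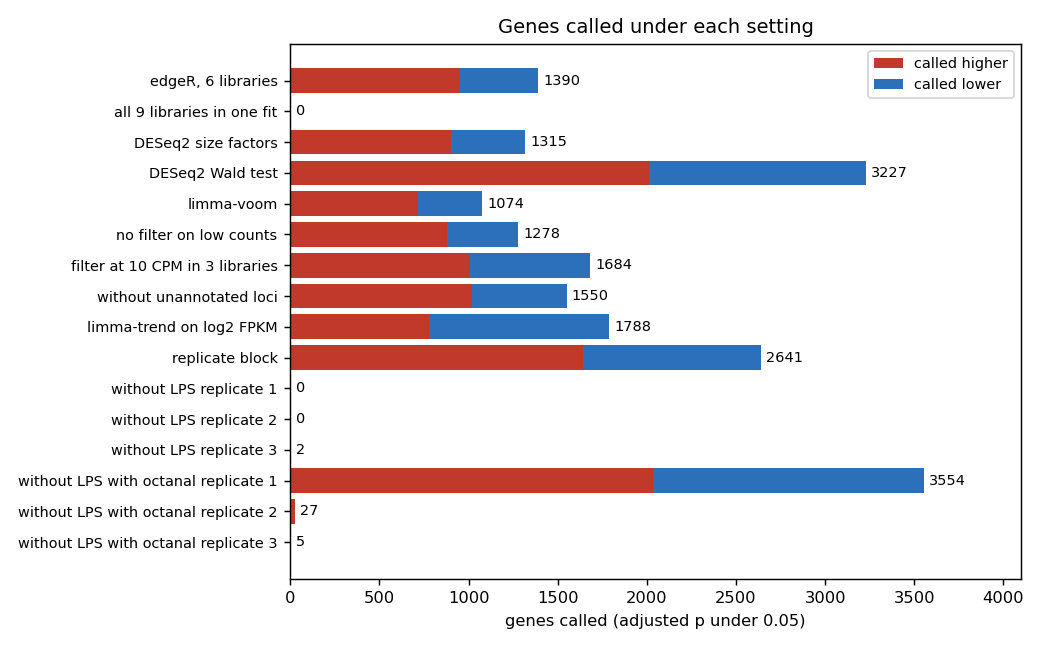
Number of genes called (horizontal axis, adjusted p under 0.05) under each setting, split into higher with octanal (red) and lower (blue). The 6-library edgeR fit gives 1390, the fit of all 9 libraries 0, and the fits without 1 library between 0 and 3554.

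Among the rises, those that held in the most fits without 1 library were of secreted acute-phase and granule proteins. Hp, which encodes haptoglobin (ENSMUSG00000031722, chr8:109575128-109579172 in GRCm38), binds free hemoglobin. It stood at 60.0, 45.8 and 52.5 CPM in the LPS libraries and at 199, 226 and 272 with octanal. All octanal libraries lay above all LPS libraries, and Hp rose by 2.17 on the log2 scale (SE 0.157, adjusted p = 0.0215), a call kept in 3 of the 6 fits without 1 library. Lcn2, whose product lipocalin-2 sequesters bacterial siderophores (chr2:32384633-32388252), stood at 400, 378 and 401 CPM with LPS. Its octanal libraries held 1418, 1218 and 1925 CPM, all above the LPS group, and the rise was 1.98 (SE 0.189, adjusted p = 0.0286), also kept in 3 fits. Untreated cells had 698 to 1636 CPM of Lcn2, a range that holds the octanal values of libraries 1 and 2.

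Other rises kept in 2 fits reached into enzymes, transporters and innate sensors. Mefv, which encodes the inflammasome sensor pyrin, was at 44.9, 44.0 and 39.2 CPM with LPS and at 103, 125 and 132 with octanal. The groups were far apart, with a rise of 1.52 (SE 0.123, adjusted p = 0.0286), and the octanal values were above all 3 untreated libraries as well, at 15.3 to 46.7. Mfsd4a, a member of the major facilitator family of transporters, was at 2.49 to 2.82 CPM with LPS and at 13.4, 23 and 10.5 with octanal, a rise of 2.58. It too exceeded the untreated libraries, at 1.26 to 2.58 CPM. Hal, the histidine ammonia-lyase that makes urocanate, was at 32.0, 44.1 and 39.9 CPM with LPS and at 136, 115 and 158 with octanal (1.85, SE 0.165). Fam20c, a secretory pathway kinase, went from 26.1 ± 2.75 to 86.9 ± 15.7 CPM, a rise of 1.77 (SE 0.156). Anxa1, the glucocorticoid-induced annexin, rose by 2.01, and Ccr1, a receptor for CCL3 and CCL5, by 1.51.

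**Figure D3:**
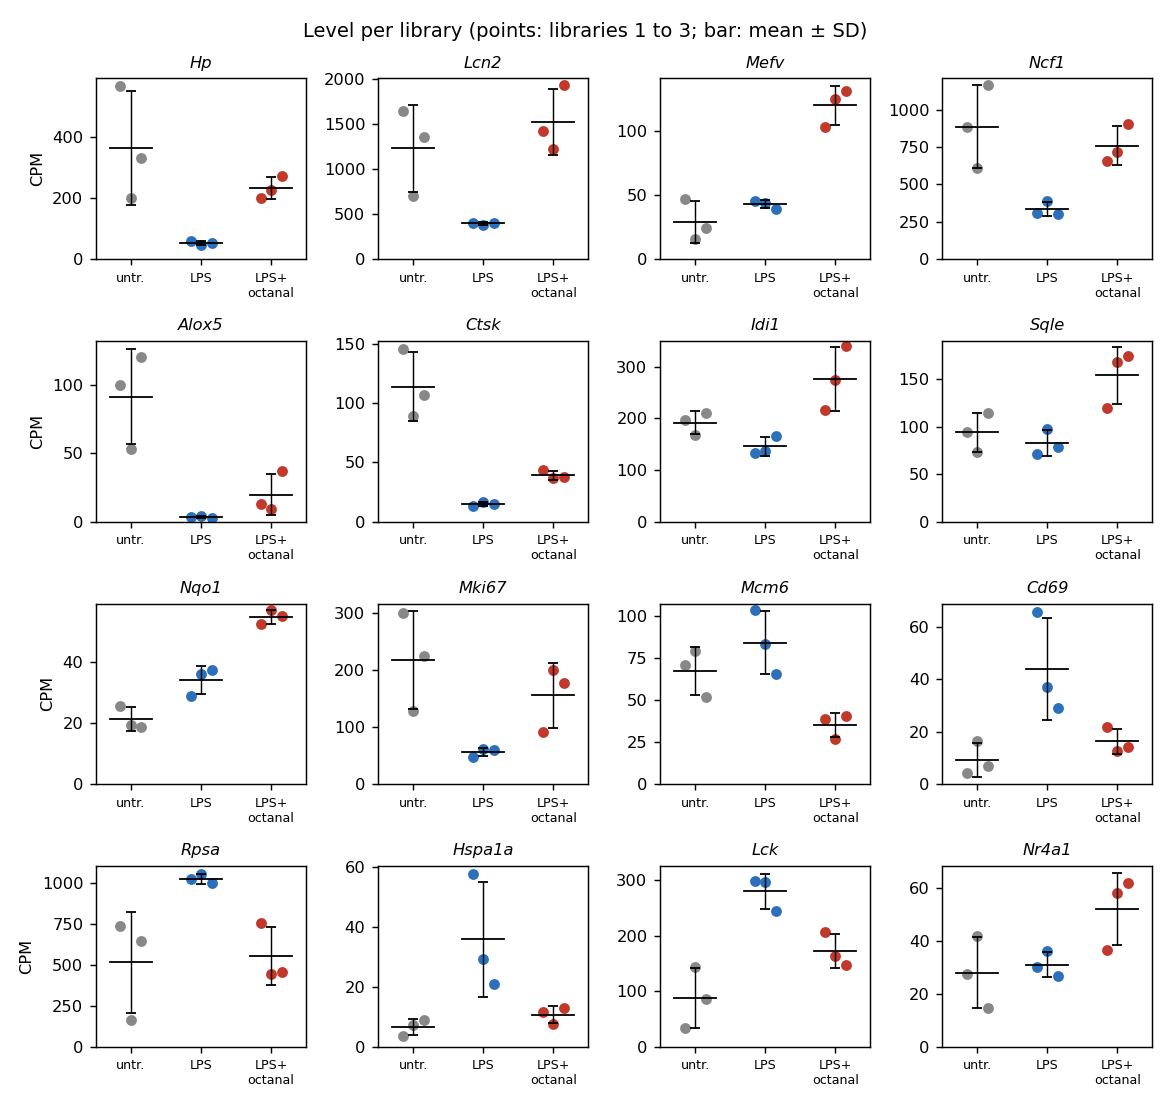
CPM (vertical axes, linear from 0) of 16 genes in each untreated, LPS and LPS with octanal library, with the mean and SD of the 3 libraries of a group. Hp, Lcn2, Mefv, Ncf1 and Idi1 are higher in every octanal library than in every LPS library, Mcm6, Rpsa and Lck are lower, and Nr4a1 was not called.

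Neutrophil granule proteins had the highest median rise of the 48 pathway lists, with wide spread between octanal libraries. Of 17 members tested, 11 rose and 0 fell, with a list median of 2.17 on the log2 scale against -0.02 over all genes. Ngp, a neutrophil granule protein, stood at 44.8, 44.3 and 31.4 CPM with LPS and at 593, 135 and 1041 with octanal. Octanal library 2 was the lowest and library 3 the highest, both above the LPS group, and the rise was 3.91 (SE 0.701, adjusted p = 0.0356) and 3.19 without octanal library 3. The same library gave the highest octanal value of Itgb2l, an integrin beta chain of granulocytes (3.86, and 3.19 without it), of Ifitm6 (3.59 and 2.69) and of Mmp9, the gelatinase (3.00 and 2.13). S100a9, a subunit of calprotectin, was at 547, 694 and 504 CPM with LPS and at 3124, 1998 and 5116 with octanal, a rise of 2.59. Camp, the precursor of the cathelicidin antimicrobial peptide, rose by 2.72, Ltf (lactoferrin) by 3.45 and Mmp8 (the neutrophil collagenase) by 1.64. Chil3, a chitinase-like lectin, rose by 2.80, and reads of its near-identical paralog Chil4 may be counted with it. Untreated libraries stood above all octanal libraries for Ngp, at 2106 to 4799 CPM. The calls of Ngp, Itgb2l, Ifitm6, S100a9, Camp and Chil3 were kept in 2 of the 6 fits without 1 library, and that of Mmp9 in none.

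Summed markers of cell types moved between the groups beside these genes. The 16 neutrophil markers summed to 1897, 2350 and 1934 CPM with LPS and to 8827, 6118 and 13767 with octanal, and to 14047 to 27336 in untreated cells. Of them, 11 rose and 0 fell. The 12 classical monocyte markers summed to 3082 to 4247 CPM with LPS and to 6317 to 9322 with octanal. Of them 4 rose, Chil3, Itgam (1.52), Vcan (1.15, a call also lost without octanal library 1) and Cd14 (0.84). The list was not uniform, with 8 positive and 4 negative differences, the lowest -1.71. Chil3 was also counted among the granule proteins, and Ly6c2 and Ccr2 were low in both groups, as given above. The 12 T cell markers tested had sums of 2258 to 2954 CPM with LPS and 1447 to 2178 with octanal, and the 11 B cell markers of 155 to 207 and 87.5 to 118. In RNA from a whole culture, fewer cells of a type and less RNA per cell cannot be told apart. The part of these shifts in the results for the gene groups described here was not tested.

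**Figure D4:**
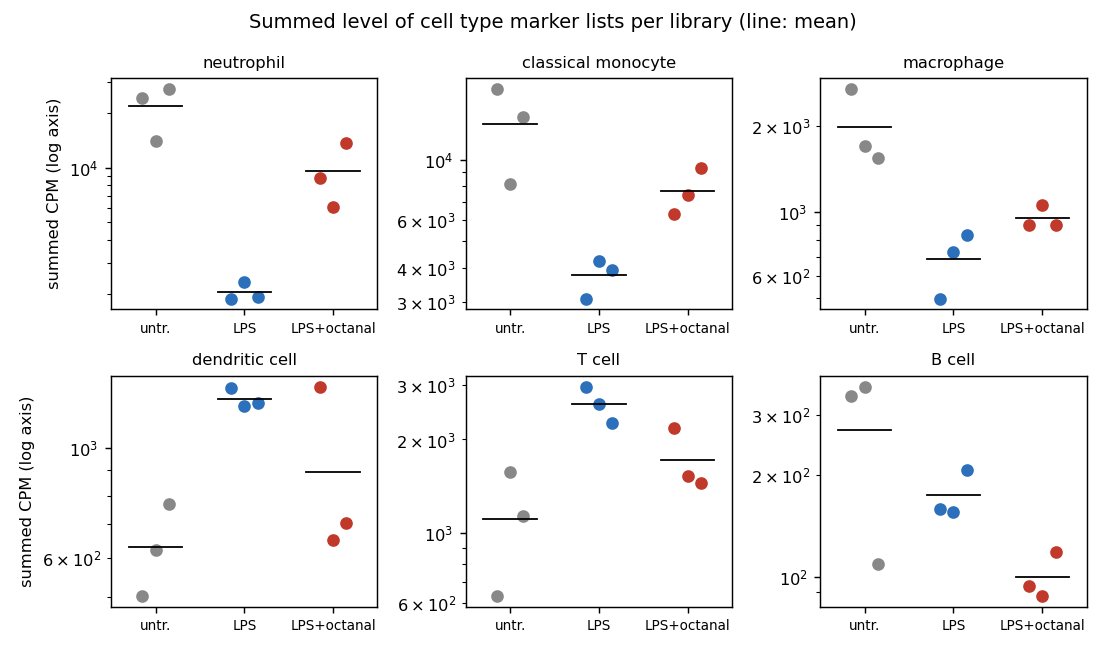
Summed CPM (log axes) of the neutrophil, classical monocyte, macrophage, dendritic cell, T cell and B cell marker lists in each library, with a line at the mean of the 3 libraries of a group. Neutrophil and classical monocyte sums of all octanal libraries lie above those of all LPS libraries, and T cell and B cell sums lie below.

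Several genes of LPS recognition rose with octanal. Of 24 Toll-like receptors and adaptors tested, 9 rose and 0 fell (median 0.57). The receptors among them were Tlr2 for bacterial lipoproteins (1.02), Tlr13 for bacterial ribosomal RNA (0.92), Tlr7 for single-stranded RNA (0.80) and Tlr4 (1.31). The LPS co-receptor Cd14 rose by 0.84, the adaptors Tirap by 1.06 and Myd88 by 0.57, and Unc93b1, which carries endosomal receptors out of the endoplasmic reticulum, by 0.97. Of 17 inflammasome genes, 6 rose and 0 fell (median 0.66), and 10 rose without octanal library 1. Beside Mefv these were the pore-forming gasdermins Gsdme (0.99) and Gsdmd (0.69), Casp4, the intracellular LPS sensor caspase-11 (0.72), P2rx7, the ATP-gated channel (0.70), and Naip5, a flagellin sensor with close paralogs (0.82).

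In the NF-kappaB pathway, 7 of 24 genes rose and 0 fell (median 0.19). Irak3, a kinase-like inhibitor of Toll-like receptor signalling, rose by 1.18. Nfkbia, the inhibitor IkappaB alpha, was at 328, 328 and 297 CPM with LPS and at 397, 529 and 485 with octanal, with no overlap (0.60, SE 0.132, adjusted p = 0.0444). Bcl3 (0.49), Nfkbiz (0.75) and Tnip1 (0.57) also rose, as did the kinase Map3k8 (1.05) and the subunit Nfkb1 (0.40).

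Of 20 cytokine genes tested, 8 rose and 1 fell (median 0.64). Csf3, which encodes the granulocyte growth factor G-CSF, was at 6.35, 4.88 and 7.69 CPM with LPS and at 11, 26.8 and 31.4 with octanal. All octanal values were higher, library 1 least so, and the rise was 1.91 (SE 0.400, adjusted p = 0.0427). Csf2, for GM-CSF, rose by 2.13 from a mean of only 0.218 CPM to 0.954. The anti-inflammatory Il10 was at 21.6, 14.7 and 15.1 CPM with LPS and at 29.0, 27.5 and 30.3 with octanal, a rise of 0.79 (SE 0.161, adjusted p = 0.0410). Osm (oncostatin M) rose by 0.82, Il1rn, the interleukin-1 receptor antagonist, by 0.43 and Tgfb1 by 0.50, beside Tnf and Ebi3. Ltb, the lymphotoxin beta subunit, fell by 0.65. Il1b was at 40.5, 30.5 and 44.2 CPM with LPS and at 60.5, 42.8 and 45.3 with octanal, so that the groups overlapped, and it was not called (0.40, adjusted p = 0.174).

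Of 19 chemokine genes, 4 rose and 0 fell, with a median of only 0.12. Ccl3, a chemokine ligand of CCR1, was at 303, 370 and 424 CPM with LPS and at 533, 1021 and 900 with octanal (1.20, SE 0.265, adjusted p = 0.0449). Its neighbour Ccl4 rose by 1.04. Cxcl2, a ligand of CXCR2 that attracts neutrophils, was at 304, 327 and 415 CPM with LPS and at 466, 713 and 733 with octanal (0.90, SE 0.215, adjusted p = 0.0490). Cxcl3, a close relative, rose by 0.98 from 94.0 ± 28.3 to 182 ± 36.4 CPM (SD, n = 3), and its call was also lost without octanal library 1. A promoter could be searched for 4 of 7 called NF-kappaB genes, 6 of 9 called cytokine genes and 3 of 4 called chemokine genes. Among these, Cxcl2, Cxcl3, Nfkbia and Ltb alone had a kappaB element in the 250 bases before the RefSeq start (GRCm38.p6). The other called genes of these lists were not searched. The element was searched as GGGA, any base and TTTCC on both strands, and its match is in capitals, read 5′ to 3′ on the strand of the gene.
Cxcl2 (chr5:90903649-90903898, plus strand): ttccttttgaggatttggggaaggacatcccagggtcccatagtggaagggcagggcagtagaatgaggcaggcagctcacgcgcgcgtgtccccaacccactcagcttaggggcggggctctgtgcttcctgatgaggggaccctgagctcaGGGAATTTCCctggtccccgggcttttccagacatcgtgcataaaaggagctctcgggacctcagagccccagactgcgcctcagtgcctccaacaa
Cxcl3 (chr5:90785851-90786100, plus strand): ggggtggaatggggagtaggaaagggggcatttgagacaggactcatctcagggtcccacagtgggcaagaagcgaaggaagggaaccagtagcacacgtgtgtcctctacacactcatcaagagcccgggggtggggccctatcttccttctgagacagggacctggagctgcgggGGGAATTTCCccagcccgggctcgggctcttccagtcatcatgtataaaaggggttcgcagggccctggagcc
Nfkbia (chr12:55492648-55492897, minus strand): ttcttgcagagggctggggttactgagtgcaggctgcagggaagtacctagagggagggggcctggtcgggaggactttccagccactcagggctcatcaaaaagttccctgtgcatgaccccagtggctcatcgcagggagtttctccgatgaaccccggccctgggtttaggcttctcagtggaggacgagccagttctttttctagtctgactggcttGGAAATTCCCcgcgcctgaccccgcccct
The match begins 97 bases before the start in Cxcl2, 73 in Cxcl3 and 29 in Nfkbia. In Ltb, which fell and is not shown, it begins 87 bases before the start. The same letters occur in 3 of 12 chemokine genes with a promoter in the table, in 2 of 3 called ones, in 0.399% of the 10266 tested genes with a promoter and in 0.678% of those called higher. They occur in 3 of 14 cytokine genes and 1 of 6 called ones. In the NF-kappaB list they occur in 2 of 19 genes and 1 of 4 called ones. A match describes the letters and is not evidence of binding.

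Some receptors that guide leukocytes or sense microbes rose, and most did not pass the test. Of 24 chemoattractant receptors, 7 rose and 1 fell (median 0.20). Gpr84, a receptor for medium-chain fatty acids, was at 28.6, 32.1 and 24.3 CPM with LPS and at 51.2, 97.5 and 98.7 with octanal, against 6.41 to 9.54 in untreated cells. It was higher in every octanal library than in any other library (1.58, SE 0.270, adjusted p = 0.0356). C5ar1, the receptor of complement fragment C5a, rose by 1.46, the formyl peptide receptors Fpr2 by 1.23 and Fpr1 by 0.97, and Ptafr, the receptor of platelet-activating factor, by 0.88. The sphingosine phosphate receptor S1pr4 fell by 0.74. Of 17 genes of C-type lectin receptors and their signalling partners Syk and Card9, 5 rose and 0 fell (median 0.81), and 9 rose without octanal library 1. Clec5a, a DAP12-coupled receptor, was at 23.9, 24.7 and 22.1 CPM with LPS and at 61.6, 80.6 and 97.1 with octanal (1.79, SE 0.178, adjusted p = 0.0286). Clec4e, the Mincle receptor (1.08), the kinase Syk (0.92) and its adaptor Card9 (1.16) rose with it.

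Of 18 genes of arachidonate and eicosanoid metabolism, 5 rose and 0 fell (median 0.40). Alox5, the 5-lipoxygenase that starts leukotriene synthesis, was at 3.03, 4.23 and 2.93 CPM with LPS and at 13.1, 9.07 and 36.9 with octanal. All octanal values were higher, and the rise of 2.57 was 1.72 without octanal library 3. Its partner Alox5ap rose by 1.33, and Ltb4r1, the leukotriene B4 receptor, by 2.54, or 1.95 without that library. Ptges, a prostaglandin E synthase, was at 26.7, 29.0 and 43.1 CPM with LPS and at 72.6, 79.0 and 64.0 with octanal, a rise of 1.16, and all octanal values also exceeded the untreated ones, of which the highest was 24.8. Ptgs2, the inducible cyclooxygenase that precedes it, differed by 0.07 and was not called. Alox5, Alox5ap and Ltb4r1 are also expressed by neutrophils, whose summed markers were higher with octanal.

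Among 26 factors of the myeloid lineage, 9 rose and 1 fell (median 0.18). Spi1, which encodes PU.1, was at 186, 210 and 224 CPM with LPS and at 322, 418 and 439 with octanal (0.96, SE 0.150, adjusted p = 0.0326). The C/EBP factors Cebpa (0.60), Cebpb (0.93), Cebpd (1.34) and Cebpe (2.85, or 2.12 without octanal library 3) each rose. Cebpe, which drives granule gene expression in granulocytes, had means of 0.950 CPM with LPS and 6.71 with octanal. Klf2, a factor of quiescence, was at 422, 347 and 285 CPM with LPS and at 239, 203 and 193 with octanal, and fell by 0.70 (SE 0.153, adjusted p = 0.0444). Of 27 receptors for colony-stimulating factors and other cytokines, 7 rose and 0 fell, among them Csf3r, the G-CSF receptor (1.56), Csf2ra (1.16) and both tumor necrosis factor receptors, Tnfrsf1a (0.96) and Tnfrsf1b (0.66).

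The phagocyte NADPH oxidase, the membrane complex that makes superoxide, had the highest share of rises of the 48 pathway lists, at 6 of 9 members tested, with 0 falls and a median of 0.93. Its cytosolic subunits Ncf1 and Ncf4 each rose by 1.22, and the small GTPase Rac2 by 0.68. Ncf1 was at 310, 386 and 304 CPM with LPS and at 655, 714 and 907 with octanal (SE 0.170, adjusted p = 0.0321). Of the membrane subunits, Cyba rose by 0.93, while the catalytic Cybb stood at 201, 299 and 389 CPM with LPS and at 418, 583 and 494 with octanal and was not called (0.78, adjusted p = 0.0892). Hvcn1, the proton channel that balances its charge, rose by 0.94. Neutrophils express this oxidase too, and the part of the higher neutrophil marker sum in these rises was not tested.

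Of 27 antioxidant genes, mostly targets of NRF2, 6 rose and 0 fell, and 26 had a positive difference (median 0.59). Without octanal library 1, 14 rose. Nqo1, a quinone reductase and typical NRF2 target, was at 28.9, 36.1 and 37.5 CPM with LPS and at 52.6, 57.2 and 55.1 with octanal. The octanal libraries lay close together and above all LPS and untreated libraries, the latter at 18.7 to 25.8 (0.72, SE 0.120, adjusted p = 0.0354). Nfe2l2, which encodes NRF2, rose by 0.64, the peroxiredoxin Prdx5 by 1.08, the mitochondrial superoxide dismutase Sod2 by 1.03, Mgst1 by 1.20 and Gpx1 by 0.66. Hmox1, the heme oxygenase, differed by 0.22 with overlapping groups (adjusted p = 0.420). Of 28 genes that metabolize aldehydes and alcohols, 4 rose and 1 fell (median 0.12). These are 14.3% and 3.57%, against 6.4% and 2.94% over all genes tested. Without octanal library 1, 7 rose and 5 fell, in a fit that called 23.3% of all genes. Adh7, a class IV alcohol dehydrogenase, was at 3.57, 4.32 and 3.82 CPM with LPS and at 10.7, 14.7 and 8.59 with octanal (1.57, SE 0.230, adjusted p = 0.0321). Aldh3b1 (1.37), Aldh2 (1.14) and Akr1a1 (0.57), which convert aldehydes to acids or alcohols, rose as well, whereas Aldh7a1 fell by 0.74.

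Of 40 lysosomal genes tested, 17 rose and 0 fell, and 39 had a positive difference, with a median of 0.73. Without octanal library 1, 33 rose. Ctsk, a cathepsin that degrades collagen, was at 13, 16.7 and 14.8 CPM with LPS and at 43.7, 36.5 and 37.5 with octanal. These groups did not overlap (1.43, SE 0.126, adjusted p = 0.0286, kept in 2 fits without 1 library), and the untreated libraries held 89.1 to 146 CPM, more than any octanal library. Cathepsins Ctsl (1.06), Ctss (1.00) and Ctsz (0.77) rose, as did the hydrolases Gusb (1.00) and Asah1 (0.87). The vacuolar proton pump that acidifies the lysosome gave 7 of the rises, from Atp6v0d2 (1.76) to Atp6v1h (0.55). The lysosomal membrane proteins Cd68 (1.14), Lamp2 (0.79) and Npc1, a cholesterol exporter (0.71), also rose. Among 27 genes of matrix and matrix proteolysis, 9 rose and 0 fell (median 0.49). Gpnmb, a glycoprotein of lipid-laden and phagocytic macrophages, was at 404, 569 and 594 CPM with LPS and at 1712, 2311 and 1447 with octanal (1.83, SE 0.235, adjusted p = 0.0315). Plaur, the urokinase receptor (1.44), its ligand Plau (0.93) and the membrane protease Mmp14 (1.42) also rose.

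Of 25 genes of cholesterol synthesis and uptake tested, 12 rose and 0 fell (median 0.62, and 22 positive). Idi1, the isomerase of isopentenyl diphosphate, was at 133, 137 and 166 CPM with LPS and at 216, 274 and 339 with octanal (0.96, SE 0.185, adjusted p = 0.0379). The steps from acetyl-CoA to squalene included Hmgcs1 (0.63), Pmvk (0.71), Idi1, Fdps (0.83) and Fdft1 (0.73). Those from squalene to cholesterol were Sqle (0.94), Cyp51 (0.73), Msmo1 (0.79), Nsdhl (0.73) and Hsd17b7 (0.72). Sqle, the squalene epoxidase, was at 70.8, 97.9 and 79.2 CPM with LPS and at 120, 169 and 175 with octanal, with no overlap (SE 0.190, adjusted p = 0.0403). Srebf2, the transcription factor that drives the pathway, differed by 0.27 (adjusted p = 0.183), and Insig1, which retains it in the endoplasmic reticulum, by 0.72 (adjusted p = 0.0582). Neither was called. Fdps was at 80, 104 and 83.2 CPM with LPS and at 134, 164 and 167 with octanal. Untreated libraries held 142, 101 and 182 CPM, a range that spans the octanal values.

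The promoters of these genes shared a short element. A CCAAT box, searched as CCAAT on both strands in the 250 bases before the RefSeq start (GRCm38.p6), was found in 17 of the 19 cholesterol genes with a promoter in the table (89.5%) and in 7 of 7 called ones. It was found in 36.8% of the 10266 tested genes with a promoter and in 34.1% of those called higher. The sterol regulatory element, searched as TCACNCCAC, was found in 1 of 19, that of Hmgcs1, 137 bases before the start, against 0.945% of the tested genes. The 3 called genes with 3 CCAAT boxes each are shown, with the box in capitals and read as ATTGG where it lies on the other strand.
Hmgcs1 (chr13:119690101-119690350, plus strand): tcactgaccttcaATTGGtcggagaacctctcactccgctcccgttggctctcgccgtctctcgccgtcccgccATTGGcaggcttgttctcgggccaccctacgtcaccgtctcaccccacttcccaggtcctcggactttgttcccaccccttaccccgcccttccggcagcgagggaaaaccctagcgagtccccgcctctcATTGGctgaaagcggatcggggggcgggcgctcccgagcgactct
Msmo1 (chr8:64733579-64733828, minus strand): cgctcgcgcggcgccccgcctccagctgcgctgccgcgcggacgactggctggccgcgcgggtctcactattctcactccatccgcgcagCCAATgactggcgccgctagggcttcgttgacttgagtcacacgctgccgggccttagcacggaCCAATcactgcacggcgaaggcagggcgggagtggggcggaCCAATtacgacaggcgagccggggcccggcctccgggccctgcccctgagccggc
Hsd17b7 (chr1:169969206-169969455, minus strand): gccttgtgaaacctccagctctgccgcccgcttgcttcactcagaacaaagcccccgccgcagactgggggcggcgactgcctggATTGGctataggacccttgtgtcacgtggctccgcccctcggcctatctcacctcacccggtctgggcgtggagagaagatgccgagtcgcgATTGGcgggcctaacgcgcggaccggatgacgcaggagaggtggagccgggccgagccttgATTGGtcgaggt
The boxes begin 237, 176 and 45 bases before the start in Hmgcs1, 160, 96 and 55 in Msmo1, and 165, 73 and 12 in Hsd17b7. Such matches describe letters in a window and were not tested for binding.

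Some genes of energy metabolism rose, in some lists more than in others. Of 30 genes of glycolysis and the pentose phosphate path, 6 rose and 0 fell (median 0.55), the glucose transporters Slc2a3 (1.21) and Slc2a6 (1.34), the hexokinases Hk2 (0.89) and Hk3 (1.06), Pgam1 (0.81) and Pgd (0.89). Without octanal library 1, 14 of them rose and 22 of the nuclear subunits described next. Of 75 nuclear subunits of the respiratory chain, 8 rose (10.7%, against 6.4% over all genes tested) and 0 fell, and 66 had a positive difference (median 0.24). Of 25 genes of fatty acid oxidation, 1 rose and 1 fell (4% each, median -0.01). The 13 transcripts encoded by the mitochondrial genome all had a negative difference (median -0.84). None of the 13 passed edgeR's test, 9 had an unadjusted p under 0.05, and DESeq2 called 10 and limma-voom 0. Summed, they took 38611 to 74809 CPM in LPS libraries, library 2 having the most, and 22602 to 32611 CPM with octanal. Of 24 genes of mitochondrial fission and fusion 0 passed edgeR's test, 5 had an unadjusted p under 0.05, and DESeq2 called 1 and limma-voom 0 (median -0.00). Over all 14885 genes tested, 4711 had an unadjusted p under 0.05 by edgeR, 2027 of them lower. Dnm1l, which encodes the fission GTPase DRP1 and is named in the series title, differed by -0.14 (adjusted p = 0.480).

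Fewer genes fell, and few of them by 2-fold or more. Aass, which encodes the enzyme that starts lysine breakdown in mitochondria (chr6:23072173-23132986), had 1588, 1150 and 1017 counts in the LPS libraries and 0, 0 and 0 with octanal. With 3 counts over the group as the floor, it was at least 1195-fold lower, and its call was kept in 4 of the 6 fits without 1 library. Untreated libraries held 1709, 0 and 1247 counts, so that a library without octanal lacked it as well. Cd69, an early activation marker of lymphocytes, was at 65.8, 36.9 and 29.0 CPM with LPS and at 21.7, 12.8 and 14.3 with octanal, and fell by 1.40. Camk1, a calmodulin-dependent kinase, fell by 1.62 from 45.6 ± 16.8 to 14.6 ± 1.80 CPM (SD, n = 3). Dnase1l3, an extracellular nuclease (-1.29), Cd55, which protects cells from complement (-1.05), and the ion pump subunit Atp1b1 (-1.01) also fell.

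Cell cycle genes moved in both directions. Of 41 cell cycle genes, 6 rose and 4 fell (median 0.17), and 14 rose without octanal library 1. Mcm6, a subunit of the replicative helicase, was at 103, 82.9 and 65.7 CPM with LPS and at 38.4, 26.8 and 40.3 with octanal, a fall of 1.22 on the log2 scale (SE 0.209, adjusted p = 0.0356). Mcm2 (-0.55) and Mcm7 (-0.48) of the same complex fell, and so did Gins2 (-1.01), a cofactor of the helicase, and Cdc25b (-0.99), a phosphatase of mitotic entry. Mki67, the proliferation marker, was at 48.2, 61.8 and 59.5 CPM with LPS and at 90.7, 199 and 177 with octanal, a rise of 1.50 (SE 0.295, adjusted p = 0.0386). Ccna2 (1.75), Ccnb1 (1.68), Cdk1 (1.63) and Top2a (1.56), which act in the later phases of the cycle, rose with it. Cdkn2c, a cyclin-dependent kinase inhibitor, rose by 1.19, while Cdkn1b, which encodes the inhibitor p27, fell by 0.62.

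Cytosolic ribosomal proteins were the list with the most falls. Of 50 tested, 16 fell and 0 rose, and 1 had a positive difference (median -0.36). Rps19, of the small subunit, was at 532, 498 and 454 CPM with LPS and at 352, 335 and 318 with octanal, without overlap (-0.53, SE 0.0923, adjusted p = 0.0356). Rpsa, at 996 to 1055 CPM with LPS and at 756, 442 and 455 with octanal, fell by 0.87, and Rps24 by 0.56. Ribosomal protein genes have many near-identical pseudogenes, so their counts may be shared. The sum of T cell markers was lower with octanal in the same way, and its part in the fall of ribosomal proteins was not tested. Of those T cell markers, Cd28 (-0.53), Lck (-0.67) and Cd3g (-0.69) fell, or 10 of 12 without octanal library 1, and of the B cell markers Cd79b (-0.98) and Blk (-0.77). Lck, a kinase of the T cell receptor, was at 299, 298 and 244 CPM with LPS and at 207, 163 and 147 with octanal (adjusted p = 0.0427). Of 18 heat shock chaperones, 2 fell and 0 rose, the near-identical Hspa1a (-1.71) and Hspa1b (-1.62), whose reads cannot be assigned safely to either and whose calls were also lost without octanal library 1.

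Few genes of second messenger signalling and of the immediate-early response passed the test. Of 31 genes of cAMP and other second messengers of G protein-coupled receptors, 3 rose and 0 fell (median -0.13), the regulatory subunit Prkar2b (0.90), the phosphodiesterase Pde7b (0.79) and the transcription factor Atf1 (0.45). Without octanal library 1, 13 were called, 5 of them higher, in a fit that called 23.3% of all genes. The olfactory cyclase Adcy3 stood at 13.9, 13.7 and 13.8 CPM with LPS and at 11.5, 7.92 and 6.91 with octanal, and was not called (-0.62, adjusted p = 0.0797). The olfactory G protein Gnal was at 12.3 to 12.5 CPM with LPS and at 7.77 to 13.4 with octanal, with overlap. Promoters held the cAMP response element TGACGTCA in 1.49% of genes called higher, 3.22% of genes called lower and 2.63% of genes tested. Of 24 immediate-early factors, Ier3 (1.06), Jun (0.87) and Atf3 (0.69) rose and Klf2 fell. Nr4a1, the orphan nuclear receptor NUR77 that is named in the series title, was at 29.9, 36.2 and 26.8 CPM with LPS and at 36.4, 57.9 and 61.6 with octanal. The groups touched without overlap, and Nr4a1 was not called (0.78, SE 0.224, adjusted p = 0.0687), except by DESeq2 (adjusted p = 0.00856) and without octanal library 1, where its difference was 0.98.

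Interferon-stimulated genes did not pass the test. Of 34 tested, edgeR called 0, 0 had an unadjusted p under 0.05, and DESeq2 and limma-voom called 0 (median -0.28). Summed, they stood at 1040 to 2767 CPM with LPS and at 977 to 2050 with octanal, with LPS library 1 and octanal library 1 far above the rest of their groups. Of 15 interferon-induced GTPases of the GBP and IRG families none was called by edgeR, DESeq2 or limma-voom, 0 had an unadjusted p under 0.05, and 0 had a positive difference (median -0.37). Of 20 genes of MHC class I presentation, edgeR called 0, 1 had an unadjusted p under 0.05, and DESeq2 called 1 and limma-voom 0 (median -0.30). Other edgeR fits did call members of these 3 lists. With the replicate number as a block, 4 interferon-stimulated genes, 5 GTPases and 5 MHC class I genes were called. Without octanal library 1 the numbers were 1, 1 and 5. Of 13 genes of MHC class II presentation, 1 rose, the cathepsin Ctss, and 0 fell by edgeR, although 11 had a negative difference (median -0.60). Of these 13 genes, 9 were lower and 2 higher at an unadjusted p under 0.05, 8 were lower without overlap, and DESeq2 called 7 and limma-voom 1. Over all 14885 genes tested, 2027 were lower and 2684 higher at an unadjusted p under 0.05 by edgeR. Groups without overlap, in either direction, made up 38.8%.

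**Figure D5:**
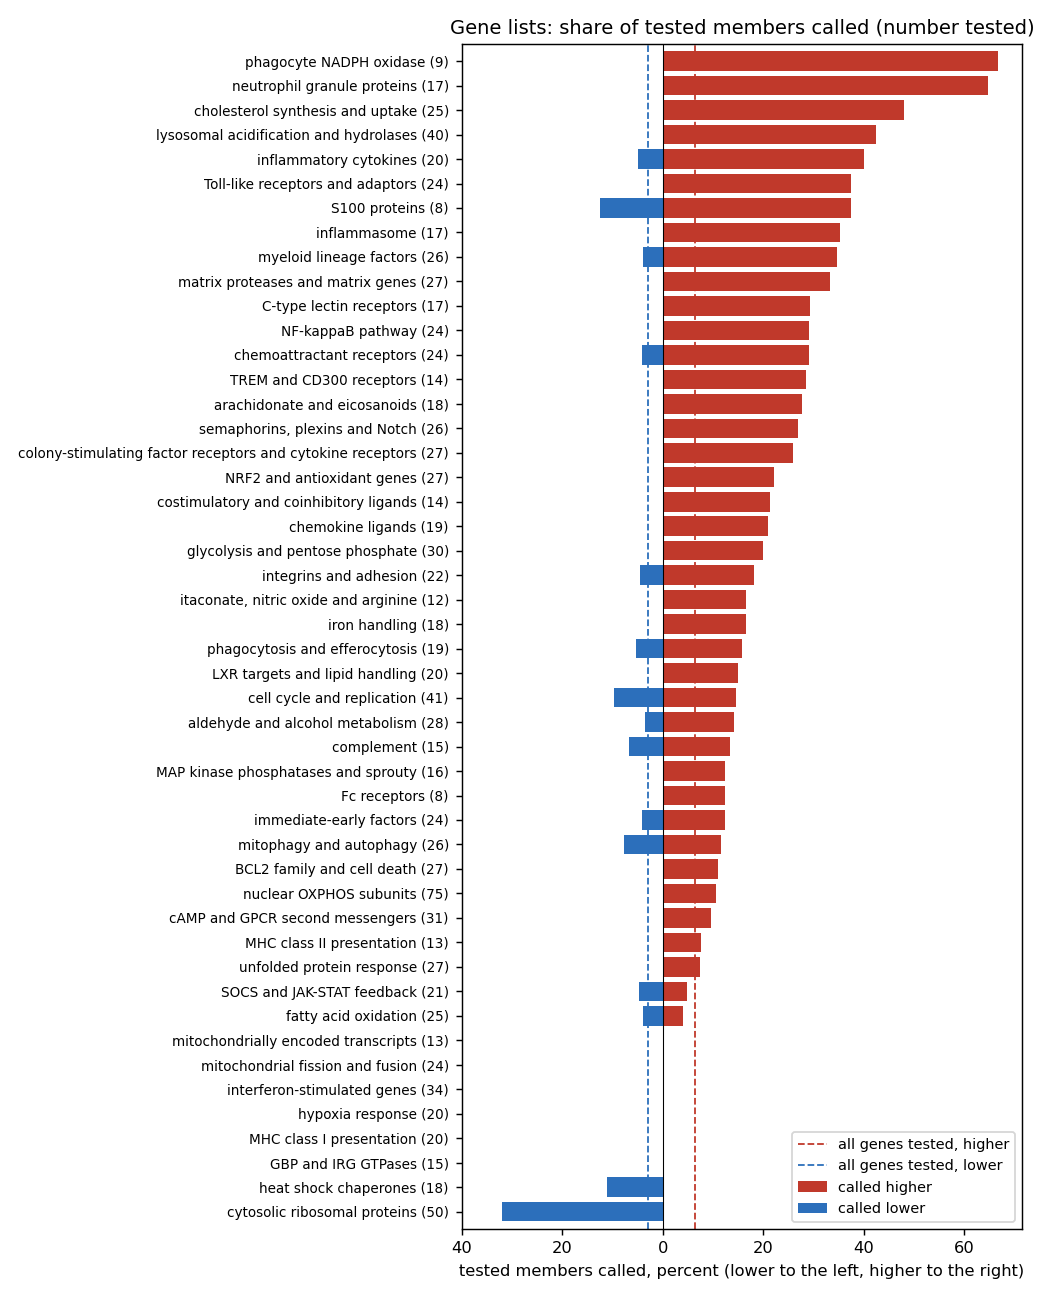
Share of the tested members of each of 48 gene lists called higher (red, to the right) or lower (blue, to the left) with octanal, with the number tested in brackets and dashed lines at 6.4% and 2.94%, the shares over all genes. The NADPH oxidase, granule, cholesterol and lysosome lists hold the highest shares of rises, and the ribosomal protein list the highest share of falls.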

How the data were processed

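Messenger RNA libraries for Illumina sequencing came from TRIzol extracts, per the labels' protocols. The authors deposited whole-number counts per gene and library without normalization, per the file headers, and in the same table FPKM values, which the authors scaled by gene length and library size, per the file headers. The submitters' processing notes name the build GRCm38. Aligner, counter and strand setting were not given in the sources used here, so overlapping genes and near-identical copies may share reads. The table held 26770 loci, 22035 with Ensembl identifiers, of which 22021 matched GENCODE M21, the source of positions, and 4735 unannotated loci named NewGene. Another 10 lines of text without values were left out. Where a symbol had several entries (Aldoa, Atp5o, Ddit3), the one with the most counts was used. Values of some genes are not reported here.

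Counts of the 6 libraries (3 per group) were fitted with edgeR 4.0.16 (R 4.3.3), using TMM factors (0.917 to 1.07), filterByExpr by group, and the robust quasi-likelihood test, with a Benjamini-Hochberg adjusted p under 0.05 over all 14885 genes tested. All adjusted p-values, log2 fold changes and standard errors (SE) are from this fit unless another tool is named. Levels are CPM on totals scaled with TMM factors of all 9 libraries. A floor of 3 counts over the group was used for a group without counts, and limits from it cover counting error only. On simulated counts for the same 14885 genes, 66 of 100 genes changed 2-fold and 89 of 100 changed 4-fold were recovered, with 13 false calls. The changed genes were drawn only from those above a minimum expected count, and were far fewer than the genes called in the data. The recovery therefore does not describe genes of low level. Replicates of a group differed by far more than counting error, and none were merged.

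The comparison, the 48 pathway and 15 marker lists, the tests and the naming rule were chosen with earlier results of these data known. The rule named the called genes of largest fold change, 15 in each direction, that have a known symbol, groups without overlap and a mean of at least 10 CPM in either group, preferring genes called in the most fits that leave out 1 library. It added up to 6 called members of lowest p per list, up to 2 called against the others, Nr4a1 and Dnm1l. Genes that were not called, and the unannotated loci, are named outside this rule and were chosen after their values were seen. Lists are described by counts and medians only. Alternatives were a fit of all 9 libraries, other size factors, DESeq2 1.42.0, limma-voom and limma-trend (limma 3.58.1; log2 FPKM with a pseudocount of 0.1 and a minimum of 1), other filters, annotated genes alone, a replicate block and the omission of each library. Promoters of 250 bases came from RefSeq (GRCm38.p6), with an entry for 10266 of 13093 tested genes with a symbol.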

Additional observations from a re-analysis of the deposited data

How the results depend on the processing

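The number of genes called was 1390, 456 of them at least 2-fold. All 214 named genes kept their direction under every alternative in which they were tested. Nearly all were named because they were called, with groups that did not overlap, so a reversal was hardly possible for them. The fit of all 9 libraries called 0 genes and 0 at 2-fold. DESeq2's Wald test called 3227 and 781 at 2-fold. With the replicate number as a replicate block 2641 genes were called. Same-numbered libraries correlated at 0.279, 0.0976 and -0.0164 in their deviations from the group means, and not every library correlated best with its own number, so the numbers were not taken to pair the samples. Without 1 library the calls ranged from 0 to 3554 and those at 2-fold from 0 to 953. Of the named genes, 212 lost their call in the fit of all 9 libraries, 37 in limma-voom, 25 without a filter, 16 on log2 FPKM, 12 with the block and 8 with DESeq2's size factors. Counts stayed within 1.5 times of 1390 with those size factors (1315), limma-voom (1074), no filter (1278), a filter at 10 CPM (1684), annotated genes alone (1550) and log2 FPKM (1788). The causes of these differences were not tested. Depth limits genes of low level such as Csf2, at a mean of 0.218 CPM with LPS.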

Other observations

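Among 1788 unannotated loci tested, 40 rose and 37 fell, smaller shares than the 6.4% and 2.94% over all genes tested. NewGene_6980 had the highest level of any of them that passed the test. It took 16274, 7617 and 9470 CPM in the LPS libraries and 3789, 2705 and 3193 with octanal, without overlap, and fell by 1.75 on the log2 scale (SE 0.320, edgeR adjusted p = 0.0356). Untreated libraries held 1888, 4259 and 2902 CPM of it. NewGene_8842 stood at 976, 951 and 766 CPM with LPS and at 498, 361 and 396 with octanal (-1.07, adjusted p = 0.0321), and untreated libraries held 16.7, 327 and 118. NewGene_6140 went the other way, from 53.2, 63.8 and 54.3 CPM with LPS to 203, 111 and 357 with octanal (2.00, adjusted p = 0.0386), with octanal library 2 the lowest and library 3 the highest, as for Ngp. All loci of this kind together took 2.99% to 4.15% of counts with LPS and 2.08% to 2.40% with octanal. Their sequence and position are not used here.

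Of 26 semaphorin, plexin and Notch genes, 7 rose and 0 fell (median 0.21), among them the plexin receptors Plxna1 (1.05) and Plxnc1 (0.61), the neuropilins Nrp1 (0.97) and Nrp2 (0.73), and Notch2 (0.66). Of 14 costimulatory and coinhibitory ligands, 3 rose and 0 fell, the PD-1 ligands Cd274 (0.54) and Pdcd1lg2 (1.24) and the inhibitory receptor Cd200r1 (1.00, a call kept in 2 of the 6 fits without 1 library), with a list median of 0.05 that became -0.08 on log2 FPKM. Among 26 genes of mitophagy and autophagy, Atg5 (0.75), Atg7 (0.95) and Tfe3, a factor that drives lysosomal genes (0.65), rose, and the mitophagy kinase Pink1 (-0.48) and the receptor Calcoco1 (-0.27) fell. The itaconate synthase Acod1 rose by 0.90, and the transferrin receptor Tfrc by 0.94.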
